A study of Mus musculus with 6 samples.

Results

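The 6 poorly characterized genes of mouse skeletal muscle described here are Mss51, 1700001O22Rik, Gm19299, 2310065F04Rik, Gm4980 and Gid4. They are 6 of the 24421 genes in the count tables and were picked from these same measurements, because each was much higher in the libraries labelled cKO, in which the transcript of the targeted gene Net39 was also high. The difference between the groups in these genes is therefore a description of how they were chosen and carries no test. No fixed threshold was used in the choice, and the smallest difference among the 6 was that of Gid4, at 2.03-fold.

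The libraries were bulk RNA-Seq of GP (gastrocnemius-plantaris) muscle, the main calf muscle, from 6 male mice, 3 in each group. Mice labelled Ctrl carried Net39 fl/fl without Cre. Mice labelled cKO carried HSACreERT2 and Net39 fl/fl, and both groups were of the labelled strain background B6C3F1, had received tamoxifen and were taken at 5 months of age, 3 months after tamoxifen. HSA-CreERT2 is a tamoxifen-inducible Cre driven by the human skeletal actin promoter, active in skeletal muscle fibers and absent from satellite cells and heart, and the loxP sites flank exon 1 of Net39. Whole muscle also holds endothelial, connective tissue, nerve and immune cells that keep an intact allele.

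Net39 is listed under the older symbol Ppapdc3 (also named Plpp7) and lies on chromosome 2 at 32095528 to 32110820, forward strand. Its counts were 310, 321 and 217 in the libraries labelled Ctrl and 5365, 4340 and 6080 in those labelled cKO. The gene that the cKO genotype deletes was thus higher in every library labelled cKO, with a log2 fold change of 4.22 ± 0.17 (SE), and every direction below is given between the labels as they stand. Total counts were 33860001 to 38201728 per library labelled Ctrl and 39191239 to 48839910 per library labelled cKO. Levels are given as CPM, read counts relative to the library total scaled by the trimmed mean of M values (TMM), and group values as mean ± SD with n = 3 mice. Of 14180 genes with enough counts to be tested, 2.13% were called higher in labelled cKO and 3.92% higher in labelled Ctrl, which required more than a 2-fold difference with an adjusted p below 0.05 in the edgeR quasi-likelihood test. By the adjusted p alone these shares were 12.6% and 11.8%, and in 43.9% of the tested genes the groups did not overlap, 3118 with every labelled cKO library above every labelled Ctrl library and 3100 the reverse. All 6 genes passed the filter on low counts, and since their choice used this contrast nothing is read from these shares for them.

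Net39 is a transmembrane protein of the inner nuclear membrane of muscle fibers, where it contacts the nuclear lamina. Among the 6 genes, Mss51 encodes a zinc finger protein made mainly in skeletal muscle and found at mitochondria, and takes its name from a yeast factor needed to make cytochrome c oxidase. Gid4 encodes the substrate receptor of the GID/CTLH complex, a ubiquitin ligase first known in yeast for degrading gluconeogenic enzymes through their N-terminal proline. 2310065F04Rik is a long noncoding RNA, listed in RefSeq with the synonym linc-Myh, made beside the fast myosin heavy chain genes and described in fast muscle fibers. Gm4980 is now named Tpbgl, for its likeness to the trophoblast glycoprotein gene, Gm19299 is annotated as a long intergenic noncoding RNA, and 1700001O22Rik is annotated as protein coding with no established role in muscle.

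The 6 genes lie on 5 chromosomes (GRCm38, the build that mm10 names, with GENCODE M21 gene models). Mss51 (ENSMUSG00000021815) occupies chromosome 14 from 20482867 to 20496901 on the reverse strand, with 7 exons and 1826 exonic bases. 1700001O22Rik (ENSMUSG00000044320) occupies chromosome 2 from 30794769 to 30803661 on the reverse strand, with 13 annotated transcripts over 2788 exonic bases, and lies 1292 kb from Ppapdc3. Gm19299 (ENSMUSG00000111556) spans chromosome 9 from 67133560 to 67213918 on the forward strand, of which 1629 bases are exonic. 2310065F04Rik (ENSMUSG00000087410) occupies chromosome 11 from 67112461 to 67120080 on the reverse strand, with 2916 exonic bases. Gid4 (ENSMUSG00000018415) lies 6662 kb away on the same chromosome, from 60417145 to 60450927 on the forward strand, with 4864 exonic bases. Gm4980 (ENSMUSG00000096606) is a gene of 1 exon on chromosome 7 from 99624082 to 99627103 on the reverse strand. Of its 3022 bases, 1168 (38.6%) are also annotated as exon of Gm10605, a noncoding gene on the opposite strand that was not analysed here, and because the strand setting of the counting was not given in the sources used here, reads of this pair cannot be told apart. The other 5 genes shared no exonic base with another annotated gene.

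The 250 bases before each annotated start were taken from RefSeq (GRCm38), which held all 6, and were searched on both strands for the E-box CANNTG, bound by myogenic basic helix-loop-helix factors, the MEF2 consensus, the box TATAAA, the MEF3 core TCAGGTT and CCAAT. Among all 32841 promoter windows of this length, these occurred in 66.2%, 2.92%, 12.4%, 3.49% and 33.9%. The windows of 3 genes are printed 5′ to 3′ on the strand of the gene because they show the range: the window of Mss51 held none of the letters searched and no CpG, that of Gm19299 held the most matches, with its E-boxes, MEF2 consensus and TATAAA in capitals, and that of Gid4 is rich in CpG, which is what its capitals mark.
Mss51, chr14:20496902-20497151, reverse strand: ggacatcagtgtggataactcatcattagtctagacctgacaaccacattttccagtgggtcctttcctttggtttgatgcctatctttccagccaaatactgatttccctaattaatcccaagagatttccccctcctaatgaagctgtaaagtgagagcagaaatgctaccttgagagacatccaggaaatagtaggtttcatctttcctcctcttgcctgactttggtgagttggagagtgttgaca
Gm19299, chr9:67133311-67133560, forward strand: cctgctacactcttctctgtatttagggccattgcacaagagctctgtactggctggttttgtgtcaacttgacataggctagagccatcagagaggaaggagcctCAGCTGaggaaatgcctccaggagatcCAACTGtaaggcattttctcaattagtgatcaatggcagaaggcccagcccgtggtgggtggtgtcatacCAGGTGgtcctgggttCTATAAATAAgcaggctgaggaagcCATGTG
Gid4, chr11:60416895-60417144, forward strand: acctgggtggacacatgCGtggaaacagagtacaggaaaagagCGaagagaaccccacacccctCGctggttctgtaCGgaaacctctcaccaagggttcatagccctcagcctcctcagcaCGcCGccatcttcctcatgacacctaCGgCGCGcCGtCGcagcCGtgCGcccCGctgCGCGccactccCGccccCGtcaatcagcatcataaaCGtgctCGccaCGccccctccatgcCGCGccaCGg
In Gm19299, 4 E-boxes were found, and the MEF2 consensus match CTATAAATAA, which contains the match to TATAAA, lay 31 to 22 bases before the annotated start. Gid4 held 24 CpG, more than 88.0% of all windows, against a median of 6, and a GC content of 64.0% against a median of 52.4%. Its window held 1 E-box. The window of Gm4980 held 2 E-boxes and 4 CpG, that of 2310065F04Rik 2 overlapping TATAAA matches near its far end and 3 CpG, and that of 1700001O22Rik 2 CpG and none of the other motifs. A match is a match of letters, and none of the 5 motifs was found in more than 3 of the 6 windows.

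Mss51 and 1700001O22Rik had the highest fold changes of the 6 genes, and the order of the pair was not fixed: 1700001O22Rik was the higher with the replicate number as a block (3.91 against 3.75), without labelled Ctrl replicate 2 (4.39 against 3.94) and without labelled cKO replicate 3 (3.82 against 3.28). The level of Mss51 was 7.84, 14.5 and 15.7 CPM in labelled Ctrl and 103, 145 and 291 CPM in labelled cKO. No overlap was seen, and the lowest labelled cKO library was 6.6 times the highest labelled Ctrl library, although the labelled cKO libraries themselves ranged over 2.81-fold. The means were 12.7 ± 4.22 and 180 ± 98.5 CPM, a log2 fold change of 3.83 ± 0.45 (SE), which placed Mss51 at rank 4 of the 14180 tested genes by fold change, next after Ppapdc3 at rank 3.

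1700001O22Rik followed at rank 5 with a low level in labelled Ctrl. Its counts there were 11, 50 and 26, against 337, 449 and 439 in labelled cKO. In CPM these were 0.281, 1.21 and 0.711 against 9.51, 11.7 and 9.98, so that the labelled cKO libraries lay close together while the labelled Ctrl libraries ranged over 4.3-fold. The log2 fold change was 3.81 ± 0.39 (SE), between means of 0.733 ± 0.463 and 10.4 ± 1.13 CPM.

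Gid4 showed the smallest and most even difference of the 6. It was present at 76.7, 76.8 and 84.4 CPM in labelled Ctrl and at 167, 158 and 159 CPM in labelled cKO. The highest library of either group exceeded the lowest of the same group by at most 1.1-fold, and the groups were separated by 1.87-fold. The means of 79.3 ± 4.42 and 161 ± 4.94 CPM gave a log2 fold change of 1.02 ± 0.08 (SE), rank 388 of the tested genes.

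Gm4980 lay between these. Its level was 37.0, 44.9 and 54.6 CPM in labelled Ctrl and 169, 134 and 153 CPM in labelled cKO, with no overlap. The mean went from 45.5 ± 8.78 to 152 ± 17.7 CPM, a log2 fold change of 1.74 ± 0.16 (SE), at rank 84.

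The noncoding genes stood at very different levels. 2310065F04Rik, the abundant RNA beside the myosin genes, measured 37.6, 54.7 and 52.3 CPM in labelled Ctrl and 173, 168 and 184 CPM in labelled cKO. The labelled cKO libraries lay within 1.09-fold of each other. Its means were 48.2 ± 9.24 and 175 ± 7.99 CPM, with a log2 fold change of 1.86 ± 0.15 (SE), at rank 62. Gm19299 rested on few reads, with counts of 10, 27 and 15 in labelled Ctrl and 78, 241 and 196 in labelled cKO. In CPM it stood at 0.255, 0.652 and 0.41 against 2.2, 6.26 and 4.45, a log2 fold change of 3.28 ± 0.48 (SE), at rank 7. Its groups did not overlap, but each spread over more than 2.5-fold, the widest relative spread within labelled cKO together with Mss51.

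**Figure D1:**
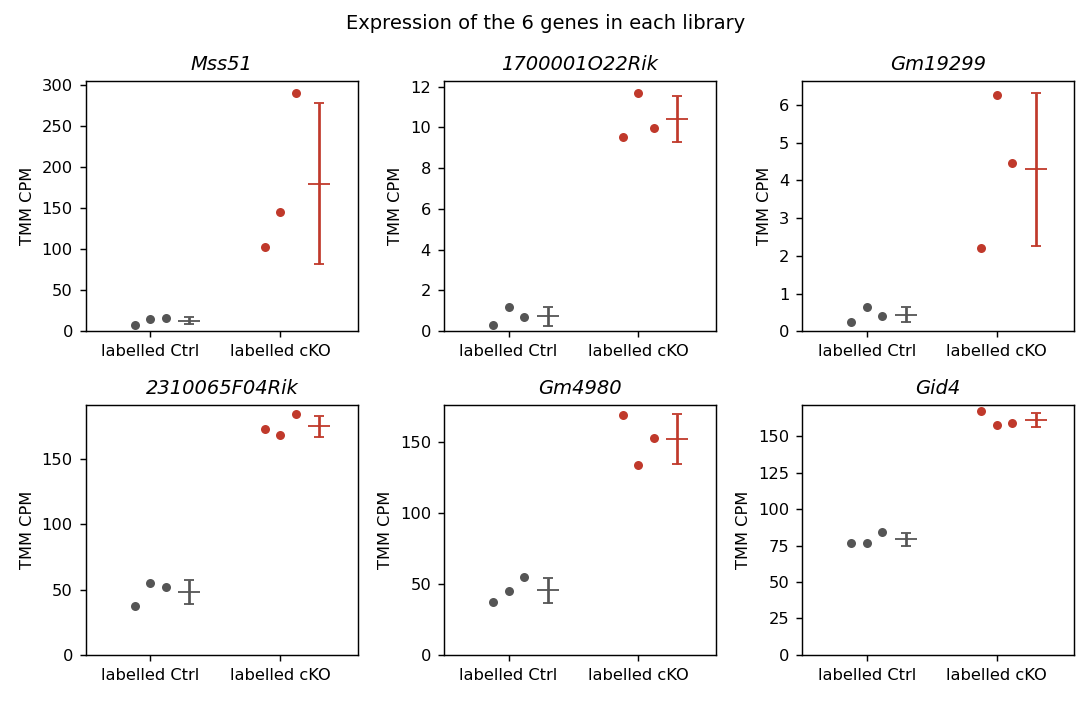
Levels of the 6 genes in each library, in CPM on linear axes from 0, for 3 libraries labelled Ctrl and 3 labelled cKO. Points are libraries, and the bar beside them gives the mean ± SD. In each panel the labelled cKO points lie above the labelled Ctrl points, most narrowly for Gid4 (1.87-fold between the nearest libraries) and most widely for 1700001O22Rik (7.88-fold).

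**Figure D2:**
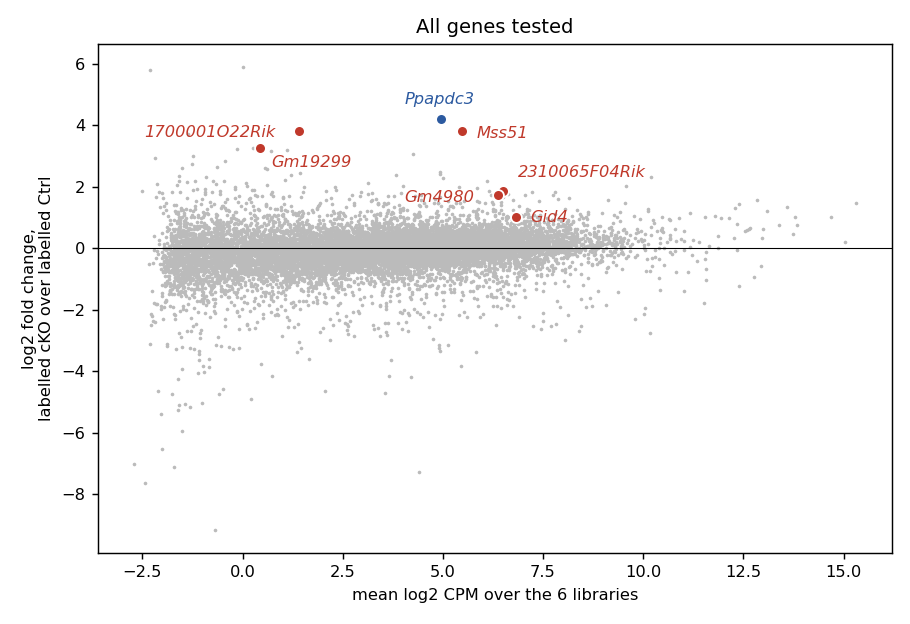
Log2 fold change, labelled cKO over labelled Ctrl, against mean log2 CPM over the 6 libraries for the 14180 tested genes (gray), with the 6 genes in red and Ppapdc3 in blue. The 6 genes were picked for their height on this axis; they range from 1.02 for Gid4 to 3.83 for Mss51, over levels from Gm19299, the lowest, to Gid4, the highest.

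Compared per length of exon in GENCODE M21, the order of the 6 genes differed between the groups. The annotation used for counting was not given, so the counted lengths may differ, and reads of Gm4980 cannot be told from those of Gm10605. In labelled Ctrl, 2310065F04Rik, Gid4 and Gm4980 were alike, at 16.5 ± 3.17, 16.3 ± 0.909 and 15.1 ± 2.91 CPM per kb, and their libraries overlapped. Mss51 lay below them at 6.93 ± 2.31 CPM per kb, and Gm19299 and 1700001O22Rik lay lowest, at 0.27 ± 0.123 and 0.263 ± 0.166 CPM per kb, not separable from each other. In labelled cKO, Mss51 had the highest mean, 98.5 ± 53.9 CPM per kb, but its libraries at 56.6, 79.5 and 159 overlapped those of 2310065F04Rik, whose mean was 60.0 ± 2.74. Below these stood Gm4980 at 50.4 ± 5.86 and Gid4 at 33.1 ± 1.02 CPM per kb, whose libraries did not overlap. 1700001O22Rik, at 3.72 ± 0.406 CPM per kb, and Gm19299, at 2.64 ± 1.25, remained the lowest and overlapped.

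The 6 genes did not vary alike from mouse to mouse. Within labelled Ctrl, replicate 1 was lowest for Mss51, 1700001O22Rik, 2310065F04Rik and Gm4980, while for Gid4 (76.7 and 76.8 CPM) and Gm19299 (10 and 15 counts) it could not be separated from the next library. Within labelled cKO, replicate 3 was highest for Mss51 and 2310065F04Rik, replicate 2 for 1700001O22Rik and Gm19299, and replicate 1 for Gm4980 and Gid4, as it was for Ppapdc3. On the log2 scale, relative to the labelled Ctrl mean, Mss51 stood at 3.09, 3.58 and 4.58 in labelled cKO replicates 1, 2 and 3, and Gm19299 at 2.28, 3.77 and 3.28. Gid4, at 1.07, 0.99 and 1.00, and 2310065F04Rik, at 1.86, 1.82 and 1.95, were nearly level across the same mice.

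The distance between profiles, taken as the root mean square difference of the log2 CPM values over the 6 libraries after centering each gene, was smallest for 2310065F04Rik and Gm4980, at 0.15. Gm4980 and Gid4 were 0.39 apart. Mss51, 1700001O22Rik and Gm19299 were 0.55 to 0.59 from each other, and the pair farthest apart was 1700001O22Rik and Gid4, at 1.56. The choice of genes that differ between the same groups brings such profiles together, and the distances compare the 6 libraries only.

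**Figure D3:**
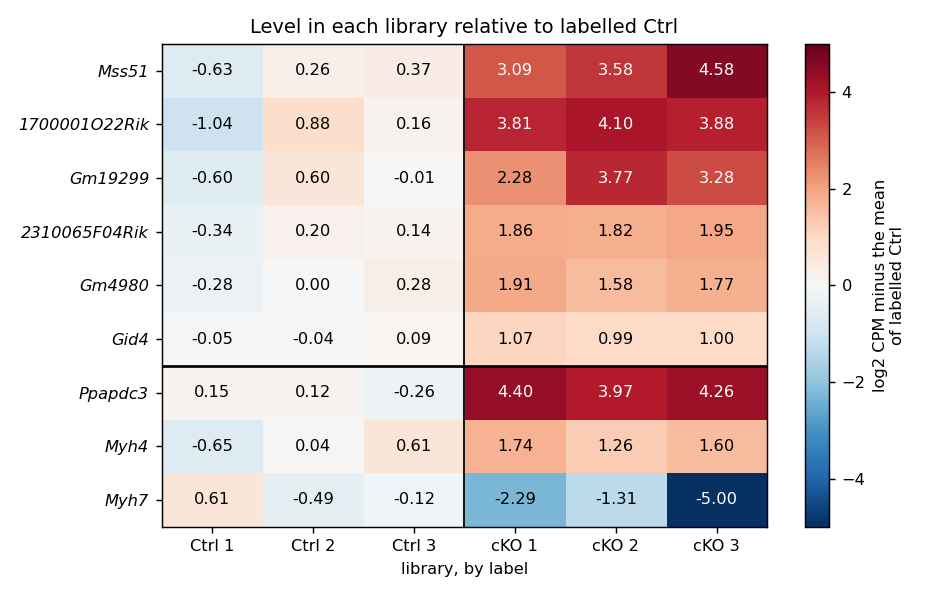
Log2 CPM of each gene in each library relative to its labelled Ctrl mean, with Ppapdc3, Myh4 and Myh7 for comparison; columns are the 6 libraries, and color and number give the value. Gid4 is nearly constant within groups (0.99 to 1.07 in labelled cKO), Mss51 runs from 3.09 to 4.58, and Myh7 goes the other way, down to −5.00.

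Among 12352 tested genes with a mean of at least 1 CPM, the 2 nearest to each of the 6 genes by the same distance were listed. For Mss51 and 1700001O22Rik these were each other (0.55) and Gm19299 (0.58 and 0.59). Gm19299 was nearest to Snph (0.44), which encodes the mitochondrial docking protein syntaphilin and had a mean of 0.593 CPM in labelled Ctrl and 3.67 CPM in labelled cKO, and then to Mss51 (0.58). 2310065F04Rik was nearest to Smyd2 (0.12), a lysine methyltransferase gene at 54.3, 76.3 and 91.5 CPM in labelled Ctrl and 245, 225 and 270 CPM in labelled cKO, and then to Gm4980. Gm4980 was nearest to Gpcpd1 (0.10), a glycerophosphodiesterase gene with means of 161 and 504 CPM, and Ccnk (0.10), which encodes cyclin K, with 62.7 and 187 CPM. Gid4 was nearest to Tab2 (0.07), an adaptor of the TAK1 kinase, with 119 and 251 CPM, and Sntb1 (0.07), a syntrophin gene of the dystrophin complex, with 2.93 and 5.49 CPM.

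To ask whether genes beside the 6 differed too, the 2 nearest protein-coding genes on each side in the count table were read from the test across all genes. Of 24 such neighbors 21 were tested (C2cd4b, Olfr520 and Myo15 had too few counts), of which 4 passed at an adjusted p under 0.05 higher in labelled cKO, 3 passed higher in labelled Ctrl and 14 did not pass. Their median log2 fold change was 0.09, against −0.02 over all tested genes, and 12.6% and 11.8% of all tested genes passed in these directions. The 4 became 2 without labelled Ctrl replicate 1 or 2 or labelled cKO replicate 1 or 3, and the 3 became 1 without labelled Ctrl replicate 1 or 2 or labelled cKO replicate 1.

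The gene 2.5 kb upstream of Mss51 on the same strand, Ppp3cb, encodes a catalytic subunit of calcineurin, the calcium-dependent phosphatase of slow fiber and MEF2 signaling. It measured 178, 198 and 245 CPM in labelled Ctrl and 437, 404 and 455 CPM in labelled cKO, with a log2 fold change of 1.06 ± 0.13 (SE) and an adjusted p of 0.00354 (edgeR quasi-likelihood test, n = 3 mice per group). The groups of Ppp3cb did not overlap, and it passed under all 13 alternatives. On the other side of Mss51, Anxa7, 2.7 kb away, had a log2 fold change of 0.27 ± 0.13 (SE, adjusted p = 0.163 in edgeR) and overlapping groups. Cfap70, 30.6 kb away and near 1 CPM, passed at 0.94 ± 0.27 (SE, adjusted p = 0.0415 in edgeR) but lost its call in 8 of 13 alternatives, and Usp54 was at 0.06.

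Beside 2310065F04Rik, 3 of the 4 neighbors, all myosin heavy chain genes, passed in the other direction, and Sco1, a copper chaperone gene of cytochrome c oxidase 45.4 kb away, did not pass (log2 fold change −0.34, adjusted p = 0.145 in edgeR). Myh3, the embryonic myosin heavy chain gene 10.2 kb away, was at 159, 201 and 171 CPM in labelled Ctrl and at 6.21, 21.5 and 9.68 CPM in labelled cKO. Its log2 fold change of −3.83 ± 0.44 (SE, adjusted p = 0.00302 in edgeR) held under all 13 alternatives, and its groups did not overlap. Myh2 and Myh1, the type IIa and IIx genes on the other side, went from means of 8540 ± 2600 and 9850 ± 2170 CPM in labelled Ctrl to 3630 ± 1480 and 5180 ± 1400 CPM in labelled cKO. Their log2 fold changes were −1.23 ± 0.34 (SE, adjusted p = 0.0392 in edgeR) and −0.93 ± 0.25 (SE, adjusted p = 0.0341 in edgeR), and these calls were lost in 4 and 5 of the 13 alternatives, leaving out labelled Ctrl replicate 1 or 2 or labelled cKO replicate 1 among them for both. Farther along the cluster, Myh4, the type IIb gene, was at 15300, 24600 and 36600 CPM in labelled Ctrl and 80100, 57400 and 72900 CPM in labelled cKO, a log2 fold change of 1.46 ± 0.33 (SE, adjusted p = 0.0213 in edgeR). Its call was lost in 4 of 13 alternatives. Myh8, the perinatal gene, also passed higher in labelled cKO, at 1.20 ± 0.30 (SE, adjusted p = 0.0275 in edgeR) with no overlap, and lost its call in 3 of 13 alternatives, each leaving out 1 library (labelled Ctrl replicate 1 or 2 or labelled cKO replicate 3). Myh13, the extraocular gene, was at −1.05 ± 0.78 (SE, adjusted p = 0.36 in edgeR) with overlapping groups.

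Gm19299 begins 84.2 kb from Tpm1, which encodes the alpha-tropomyosin of the thin filament. Tpm1 was at 6660, 7940 and 8640 CPM in labelled Ctrl and 19800, 18100 and 21100 CPM in labelled cKO, with a log2 fold change of 1.34 ± 0.16 (SE, adjusted p = 0.00334 in edgeR) that held under all 13 alternatives. Tln2, the talin 2 gene 3.2 kb away, had a log2 fold change of 0.30 ± 0.11 (SE, adjusted p = 0.0829 in edgeR). Lactb, a mitochondrial protease-like gene, passed narrowly at 0.34 (adjusted p = 0.0493 in edgeR) and lost the call in 9 of 13 alternatives.

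No tested neighbor of the other 3 genes passed, and of these 10 genes 0 had an unadjusted p below 0.05 in edgeR or DESeq2. Ntmt1, which begins 4.2 kb from 1700001O22Rik in the opposite direction, had a log2 fold change of 0.11 ± 0.14 (SE, adjusted p = 0.601 in edgeR). Asb6 was at 0.16, and Cstad and Ier5l, both low and overlapping between the groups, were at −0.35 and −0.22. Atpaf2, an assembly factor gene of the ATP synthase that overlaps Gid4 on the opposite strand without a shared exonic base, was at 25.6, 26.5 and 23.4 CPM in labelled Ctrl and 29.5, 24.7 and 30.9 CPM in labelled cKO, a log2 fold change of 0.17 ± 0.10 (SE, adjusted p = 0.265 in edgeR) with overlapping groups. Lrrc48 and Drg2, also beside Gid4, were at −0.25 and 0.09. Around Gm4980, Arrb1, Rps3 and Slco2b1 were at 0.08, 0.09 and −0.02. A p above the threshold does not show that these genes did not differ.

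**Figure D4:**
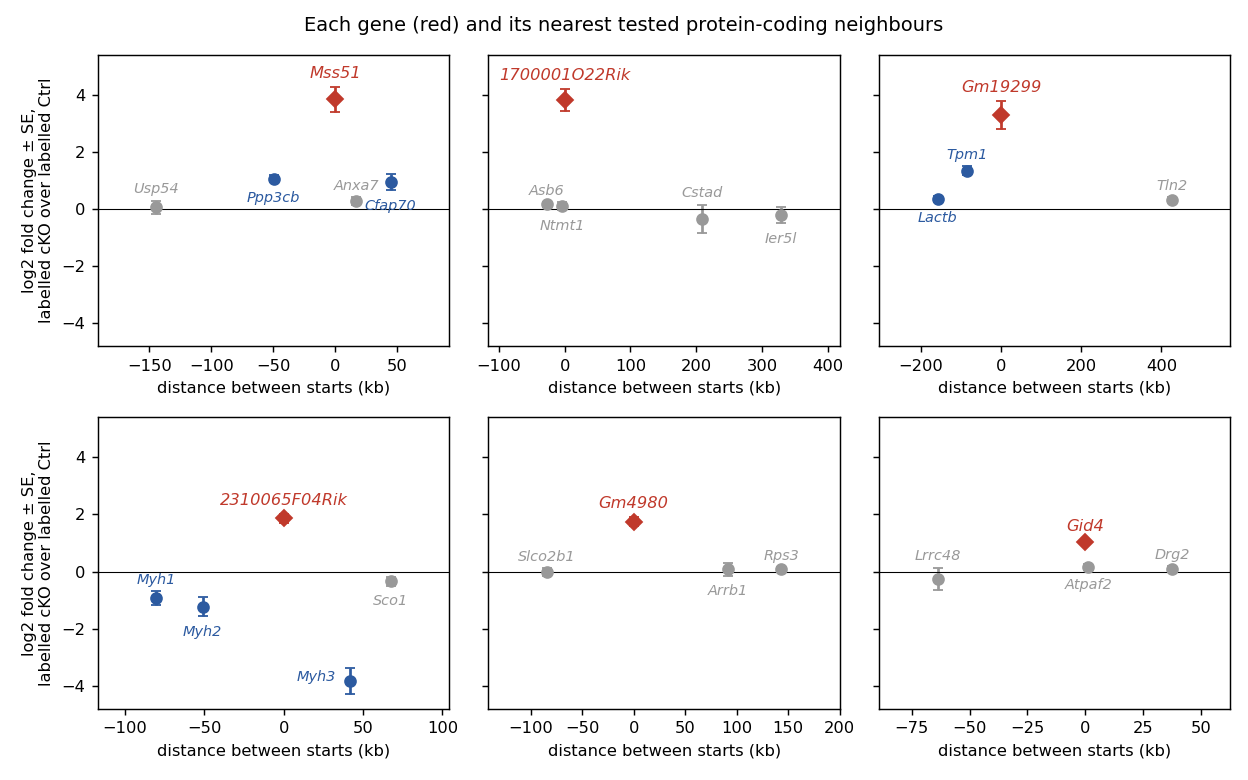
Log2 fold change ± SE, labelled cKO over labelled Ctrl, of each gene (red) and its tested protein-coding neighbors (blue, adjusted p under 0.05; gray, not) against the distance between annotated starts in kb, positive in the direction of transcription of the red gene. Ppp3cb (1.06) and Tpm1 (1.34) lie above 0 beside Mss51 and Gm19299, and Myh3 (−3.83), Myh2 (−1.23) and Myh1 (−0.93) lie below 0 beside 2310065F04Rik.

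Gid4 is a single subunit of a large complex, so the other measured members of the GID/CTLH ligase were read beside it. Of the 11 others, 2 passed higher in labelled cKO, 2 passed higher in labelled Ctrl and 7 did not pass, with a median log2 fold change of 0.07 and a range of −0.49 to 0.52. Over all tested genes 12.6% and 11.8% passed in these directions, so the counts of 2 and 2 are near the background. The 2 higher in labelled Ctrl, Maea and Ube2h, fell to 0 in edgeR (2 or 3 genes of the list at an unadjusted p below 0.05) with DESeq2 size factors, with the replicate number as a block, and without labelled Ctrl replicate 1 or 3 or labelled cKO replicate 1 or 3, while the DESeq2 Wald test gave 2. Rmnd5a, a RING subunit of the catalytic pair, was at 215, 212 and 240 CPM in labelled Ctrl and 313, 314 and 329 CPM in labelled cKO, with a log2 fold change of 0.52 ± 0.08 (SE, adjusted p = 0.0075 in edgeR), a call lost only when library totals replaced TMM. Its partner Maea passed in the opposite direction at −0.24 ± 0.07 (SE, adjusted p = 0.0445 in edgeR), lost in 8 of 13 alternatives. Armc8, a scaffold subunit through which Gid4 joins the complex, passed at 0.41 ± 0.10 (SE, adjusted p = 0.0296 in edgeR), and Ube2h, the ubiquitin-conjugating enzyme that works with the ligase, at −0.49 ± 0.15 (SE, adjusted p = 0.0487 in edgeR), each lost in 6 of 13 alternatives. The groups of Ube2h met at 101 CPM. Ranbp9, Ranbp10, Rmnd5b, Gid8, Wdr26, Mkln1 and Ypel5 did not pass, at −0.25 to 0.22.

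For Mss51 the genes of cytochrome c oxidase assembly were read in the same way. Of 27 listed, 25 were tested, of which 4 passed higher in labelled cKO, 1 passed higher in labelled Ctrl and 20 did not pass, and the median log2 fold change was 0.09. The first count is near the 12.6% of all tested genes that passed in that direction, and 11.8% passed in the other. The 4 became 1 with library totals in place of TMM, with the replicate number as a block, and without labelled Ctrl replicate 1 or 2 or labelled cKO replicate 3, and 2 without labelled Ctrl replicate 3 or labelled cKO replicate 1. Coa7, an assembly factor gene, was at 13.2, 16.4 and 13.3 CPM in labelled Ctrl and 26.4, 21.2 and 24.9 CPM in labelled cKO, with a log2 fold change of 0.76 ± 0.13 (SE, adjusted p = 0.00783 in edgeR) under all 13 alternatives past the threshold. Coa5 and Coa6 passed at 0.33 each and Cmc1 at 0.31, and these calls were lost in 6, 8 and 11 of 13 alternatives. Cox19, a copper delivery factor gene, passed in the opposite direction at −0.58 ± 0.12 (SE, adjusted p = 0.0165 in edgeR), lost in 4 of 13, each of them leaving out 1 library (labelled Ctrl replicate 1 or 2, or labelled cKO replicate 1 or 3).

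**Figure D5:**
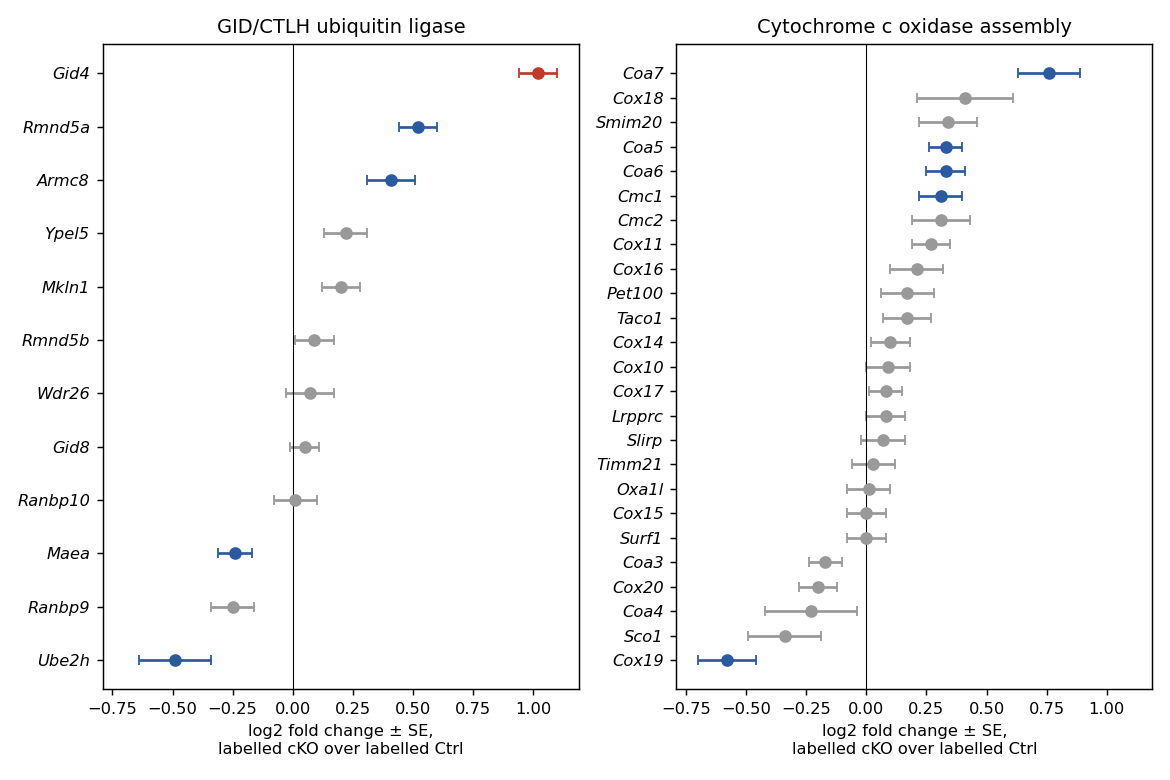
Log2 fold change ± SE, labelled cKO over labelled Ctrl, of the tested genes of the GID/CTLH complex and of cytochrome c oxidase assembly, with Gid4 in red, genes that passed at an adjusted p under 0.05 in blue and the others in gray. Apart from Gid4 (1.02) the GID/CTLH genes lie between −0.49 and 0.52, and the assembly genes lie between −0.58 (Cox19) and 0.76 (Coa7).

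Fiber type genes differed between the same libraries. Of 14 genes of type IIb fibers, 12 passed higher in labelled cKO, against 12.6% of all tested genes, with a median log2 fold change of 0.98 and summed levels of 72000 to 116000 CPM in labelled Ctrl against 174000 to 221000 CPM in labelled cKO. Of 13 slow fiber genes, 7 passed higher in labelled Ctrl, against 11.8% of all tested genes, with a median of −2.30 and summed levels of 14500 to 22600 CPM against 2180 to 6370 CPM. The IIb count was 5 without labelled Ctrl replicate 2, 6 without labelled cKO replicate 1 and 4 without labelled cKO replicate 3. The slow count was 3 without labelled Ctrl replicate 1, 4 without labelled Ctrl replicate 2 and 11 without labelled cKO replicate 2. Myh7, the slow myosin gene, was at 3680, 1720 and 2220 CPM in labelled Ctrl and 494, 974 and 75.3 CPM in labelled cKO (log2 fold change −2.30 ± 0.79, SE, adjusted p = 0.0742 in edgeR). Myh4 was lowest in labelled Ctrl replicate 1, as Mss51, 1700001O22Rik, 2310065F04Rik and Gm4980 were. In labelled cKO it was highest in replicate 1, as Gm4980 and Gid4 were and where Mss51 and Gm19299 were lowest. Myh7 in labelled cKO was lowest in replicate 3, where Mss51 and 2310065F04Rik were highest, and highest in replicate 2, as 1700001O22Rik and Gm19299 were. The part of fiber type in the levels of the 6 genes was not tested, and in whole muscle fewer fibers of a type and less RNA per fiber cannot be told apart.

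Markers of other cells were read as well, and none of them was at 0 in every library. The markers of all muscle fibers (Ckm, Acta1, Des and Mb) summed to 47500 to 51000 CPM in labelled Ctrl and 49100 to 65800 CPM in labelled cKO. These sums overlapped, and 1 of the 4 genes was higher in every labelled cKO library, as were 3118 of the 14180 tested genes. Immune markers summed to 43.4 to 53.8 CPM against 23.6 to 35.5 CPM, with 4 of 4 genes higher in every labelled Ctrl library, as were 3100 of the 14180 tested genes. Endothelial markers (342 to 360 against 308 to 337 CPM) and Schwann cell markers (57.4 to 90.8 against 32.1 to 55.9 CPM) were also higher in labelled Ctrl in sum. So were the heart genes Myh6, Nppa and Nppb (177 to 659 against 0.659 to 71.4 CPM), which in a calf muscle do not measure heart cells. In these lists only 2 of 4, 2 of 4 and 1 of 3 genes, in that order, did not overlap between the groups. The summed levels of satellite cell, fibro-adipogenic, adipocyte and neuromuscular junction markers overlapped between the groups, although 1 fibro-adipogenic and 1 neuromuscular junction gene were higher in every labelled Ctrl library. The part of these cells in the levels of the 6 genes was not tested.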

How the data were processed

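RNA from GP muscle was made into libraries with the KAPA mRNA HyperPrep kit. According to the submitters' processing notes, reads were checked with FastQC 0.11.8, trimmed with Trimmomatic 0.39, aligned to mm10 with HISAT2 2.1.0 and counted with featureCounts 1.6.2; the gene annotation and strand setting were not given in the sources used here. The authors deposited 1 table of raw counts per library, with whole numbers and no normalization. Of 24421 genes, 23376 matched GENCODE M21 by symbol and 669 more through a RefSeq synonym.

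Groups were taken from the sample labels. All genes passing filterByExpr were fitted over the 6 libraries with edgeR 4.0.16 in R 4.3.3 (TMM, quasi-likelihood test, Benjamini-Hochberg adjustment), the step having been tested on simulated data. DESeq2 1.42.0 was an alternative. The log2 CPM of profiles used a prior count of 2. P-values measure the spread between these mice only, and replicates differed by more than counting error (chi-square over its degrees of freedom, 31.3 to 107). Named genes were the 6 genes, Ppapdc3, for each the 2 nearest profiles with a mean of at least 1 CPM and the 2 nearest protein-coding neighbors per side, all GID/CTLH genes, of the passing assembly genes the 3 of lowest p per direction, and Myh4, Myh1, Myh2 and Myh7; Cmc1, Myh8 and Myh13 were named after their values were seen. The 6 genes and all lists were chosen with earlier results of these data known.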

Additional observations from a re-analysis of the deposited data

How the results depend on the processing

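Over 14 alternatives the log2 fold changes of the 6 genes kept their direction, and 81 of 84 values stayed within the spread between mice. The genes were picked by this contrast, so the kept direction is no support for the difference. With library totals in place of TMM, which moved the median of all genes from −0.02 to −0.27, 2310065F04Rik was at 1.61, Gm4980 at 1.48 and Gid4 at 0.77, and Ppapdc3 at 3.95. That scaling gave 157 genes called higher in labelled cKO and 1023 higher in labelled Ctrl, against 302 and 556, and 673 and 4074 by the adjusted p alone, against 1786 and 1668. Of the GID/CTLH genes higher in labelled cKO it left 1, which was Gid4 itself, picked by this contrast. Library totals also left 1 assembly gene and 2 neighbors higher in labelled cKO, and 5 assembly genes and 11 slow fiber genes higher in labelled Ctrl. Slow fiber genes numbered 11 in the DESeq2 Wald test. With DESeq2 size factors in edgeR 0 GID/CTLH genes passed higher in labelled Ctrl (3 at an unadjusted p below 0.05), where TMM and the DESeq2 Wald test each gave 2. Without the filter 1 did, and 2 neighbors passed higher in labelled cKO.

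The labels name no pairing of mice by replicate number. Deviations from the group means had correlations of 0.0835, −0.215 and −0.00201 between same-numbered libraries, which with 3 mice per group cannot exclude pairing. With the number as a block, 927 genes passed higher in labelled cKO and 972 higher in labelled Ctrl, as did 1 assembly gene, 2 neighbors and 6 IIb genes in labelled cKO and 0 GID/CTLH genes in labelled Ctrl (3 at an unadjusted p below 0.05 in edgeR).

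Leaving out 1 library at a time, Mss51 ranged from 3.28 to 4.10, 1700001O22Rik from 3.42 to 4.39, Gm19299 from 2.90 to 3.69, 2310065F04Rik from 1.71 to 1.96, Gm4980 from 1.62 to 1.90, Gid4 from 0.98 to 1.07 and Ppapdc3 from 4.10 to 4.31. Genes called higher in labelled cKO numbered 172 (without labelled Ctrl replicate 1) to 387 and higher in labelled Ctrl 398 to 685, and by the adjusted p alone 766 to 1777 and 788 to 1808. GID/CTLH genes, here with Gid4 counted in, numbered 2 to 3 higher in labelled cKO, against 3 with all libraries, and 0 to 2 higher in labelled Ctrl. Assembly genes numbered 1 to 3 and 0 to 2, neighbors 2 to 4 and 1 to 3, IIb genes 4 to 12 and slow fiber genes 3 to 11. The causes of these changes were not tested. Counts of 10 to 50 reads limit the labelled Ctrl levels of 1700001O22Rik and Gm19299.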
